A study of Homo sapiens with 12 samples.

Results

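The genes described here encode 37 polycomb, DNA methylation and heterochromatin factors, taken by symbol from a list and all found among the 38716 gene symbols of the series. They were measured in IMR90, a line of normal human fetal lung fibroblasts that stops dividing after continuous passaging. Each of 3 proliferating and 3 senescent cultures, the latter passaged to replicative exhaustion with no other agent in the labels, gave 1 Ribo-seq library (ribosome-protected fragments, or RPFs) and 1 poly(A) RNA-seq library from a part of the same lysate, so that there are 12 libraries in 4 groups of 3. The labels name a pair of IMR90 isolates without saying which culture came from which, and both states come from this 1 cell line. Names of the proliferating RNA-seq data hold a tag resembling DMSO, which the labels do not explain. If it marks a treatment, that cannot be told apart from state in mRNA or in footprints per mRNA. An mRNA level is the sum of 5′ UTR, coding sequence (CDS) and 3′ UTR reads of a gene in RNA-seq, and an RPF level is its CDS footprints in Ribo-seq, both in CPM, that is reads relative to the scaled size of the library. A change is the fitted log2 ratio of senescent to proliferating cells with its standard error (SE). It was called where edgeR's quasi-likelihood test gave an adjusted p below 0.15, the false discovery rate of the study.

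Polycomb proteins work as complexes. PRC2 places methyl groups on lysine 27 of histone H3 (H3K27) through the catalytic subunit EZH2 or its paralog EZH1, and PRC1 binds that mark through a CBX protein and ubiquitylates histone H2A through RING1 or RNF2. DNA methylation is copied onto the new strand at replication by DNMT1, which UHRF1 brings to hemimethylated sites, whereas DNMT3A and DNMT3B set it anew and the TET enzymes oxidise it. In constitutive heterochromatin, SUV39H1, SUV39H2 and SETDB1 methylate lysine 9 of histone H3 (H3K9) and HP1 proteins bind there. A set of 8 factors that act at the replication fork or in chromatin assembly, or are known E2F targets, is called replication-linked below: DNMT1, UHRF1, HELLS, EZH2, EED, RBBP4, RBBP7 and SUV39H1. The other 29 make up the comparison group.

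Over mRNA regions, RNA-seq gave 7902427 to 14144455 reads a library. Ribo-seq was less deep and uneven, with 583798 to 1718521 CDS footprints in 4 of them but 54421 in proliferating culture 1 and 54708 in senescent culture 2, where a count of 0 allows up to 50.5 and 51.2 CPM. All 10 fibroblast markers exceeded a mean of 1 CPM in RNA-seq, and none of 5 epithelial or 5 leukocyte markers did. Of 5 endothelial markers, TEK alone did. The list summed to 54.4 to 62.0 CPM in proliferating and 93.7 to 105 CPM in senescent cells while CDH5, a defining marker of endothelium, was at 0, and the part of this in any result was not tested. In bulk RNA, fewer cells of a type and less RNA per cell cannot be told apart.

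Most of these factors were called lower in senescent cells in mRNA, as were most of the 22 with enough footprints for a test in RPF. The mRNA of 30 of 37 fell and that of 4 rose, against 37.0% and 36.6% of all 12787 genes tested (73.6% changed). Their median log2 change was -0.66, beside -0.01 over all genes. Senescent and proliferating libraries did not overlap for 29 of 37, with 27 lower and 2 higher, beside 67.8% of all genes. Footprints sufficed to test 22 factors, of which 15 fell and 2 rose, against 26.9% and 27.5% of 7521 genes (54.4% changed), with a median of -0.80 beside -0.00. RPF groups did not overlap for 6 of the 22, all lower, beside 32.5% of all genes. The remaining 15 factors had 0 to 23 footprints in any library and 6 to 59 over all 6, and for these only the mRNA could be compared. They were EZH1, JARID2, MTF2, BMI1, CBX2, CBX7, CBX8, DNMT3A, DNMT3B, the 3 TET genes, SUV39H1, SUV39H2 and KDM6B.

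**Figure D1:**
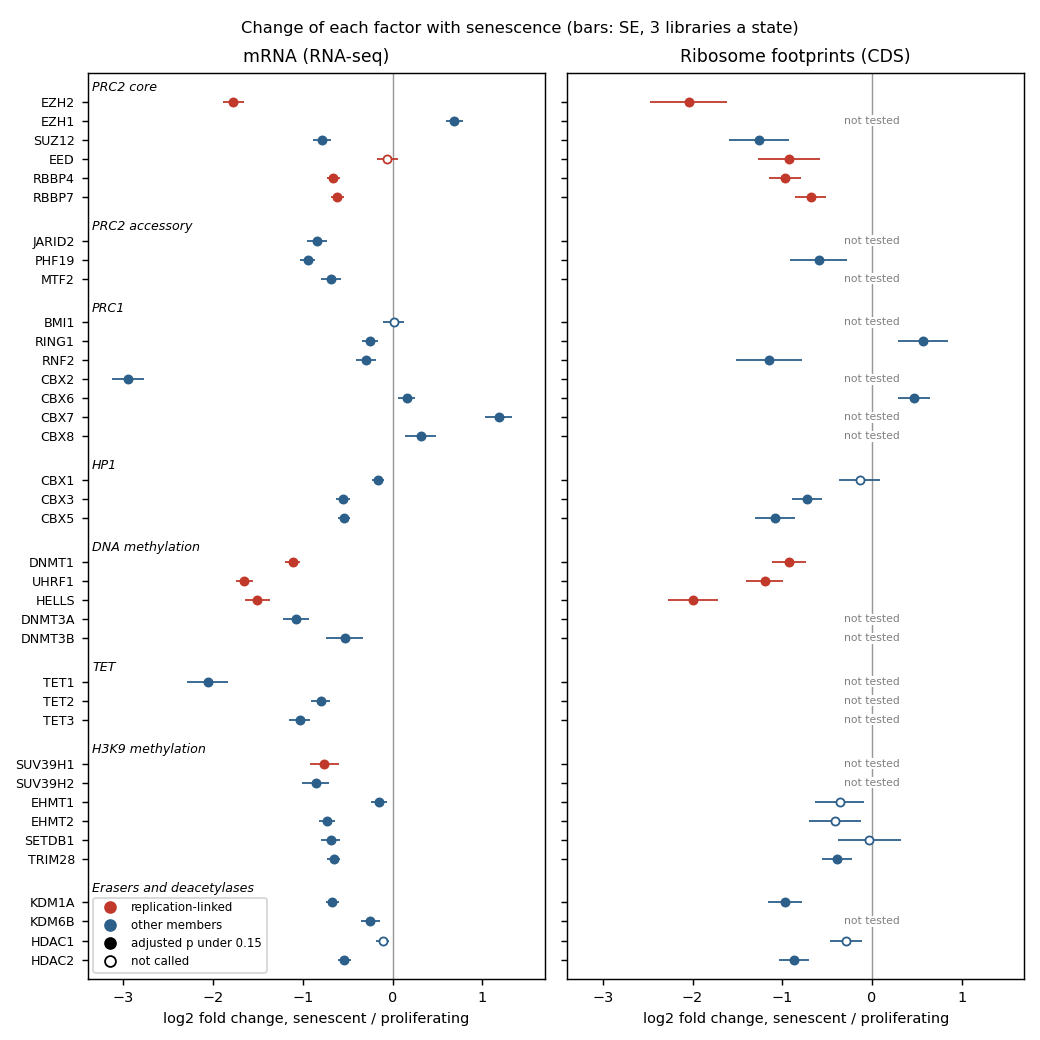
Fitted log2 fold change (senescent over proliferating) of each factor in mRNA, left, and CDS footprints, right, grouped by role. Bars are SE from 3 libraries a state, red marks the 8 replication-linked factors, and filled points passed an adjusted p of 0.15. In mRNA, 30 points are called on the lower side and 4 on the higher side, and 15 factors had too few footprints for the right panel.

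The replication-linked factors had more negative medians than the others, but the ranges of both sets overlapped. Of the 8, 7 fell in mRNA, with a median log2 change of -0.94 and a range from -1.78 to -0.06. Among the other 29, 23 fell and 4 rose, with a median of -0.56 and a wider range from -2.95 to 1.184. In RPF all 7 that could be tested fell (median -0.97), whereas 8 of 15 others fell and 2 rose (median -0.41). EED was among these 7 only because its proliferating libraries passed the count filter, so its fall is not separate from that filter. Over all genes tested, 37.0% fell and 36.6% rose in mRNA, and 26.9% fell and 27.5% rose in RPF. Relative to the proliferating mean, the median mRNA of the 8 was at -0.93, -1.10 and -0.81 in the 3 senescent libraries, and that of the others at -0.63, -0.56 and -0.59. In footprints the same medians were -1.16, -1.48 and -0.84 for the 7, against -0.60, -0.08 and -0.47 for the 15. The replication-linked median thus lay below that of the others in every senescent library at both levels. In footprints the widest gap, -1.48 against -0.08, came from shallow senescent culture 2, where these 7 had 0 to 10 footprints each. The difference in fitted RPF medians was -0.56, and the library values of this difference had an SD of 0.55 over the 3 senescent libraries. In mRNA that SD was 0.17. No test of the difference was made, since members of a list are not replicates. The size of the difference in mRNA depended on membership: it was -0.38 with 8 genes, -0.97 with only DNMT1, UHRF1, HELLS and EZH2, and -0.28 after adding SUV39H2, SUZ12, CBX5 and PHF19, and it was -0.23 without senescent culture 2.

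Genes of DNA replication itself, listed as a reference, moved further than the replication-linked factors as a set. Of 35 such genes, among them the MCM helicase subunits, PCNA and the replicative polymerases, 33 fell and 1 rose in mRNA with a median of -1.33. Over all genes 37.0% fell and 36.6% rose. In RPF 24 of 28 tested fell, beside 26.9% of all genes, with a median of -1.19. A narrower set of 4, DNMT1, UHRF1, HELLS and EZH2, had medians of -1.58 in mRNA and -1.596 in RPF. These 4 were also the replication-linked factors with the largest mRNA falls. The lists were chosen with earlier results known, so these medians give no separate information on a link to the fork or to E2F.

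Promoters of the factors were searched for the E2F octamers TTTCCCGC, TTTCGCGC, TTTGCCGC and TTTGGCGC on both strands, in RefSeq windows reaching from 250 bases before the transcription start to 50 bases from it on (build GRCh38.p14). Only the first-listed start of each symbol was used for these windows. An octamer was present in 908 of 27305 windows (3.325%) and in 17 of 30 windows of DNA replication genes (56.67%). It was in 4 of 8 replication-linked factors and in 4 of 26 others. CBX2, CBX8 and TRIM28 had no window here. The 9 matches are shown because they divide EZH2, DNMT1, UHRF1 and HELLS from the rest of their set, although known E2F targets were among the grounds for naming that set, so their matches are not independent of it. Each line reads 5′ to 3′ on the gene's own strand, with the octamer or its reverse complement in capitals.
EZH2: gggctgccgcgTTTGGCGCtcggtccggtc
DNMT1: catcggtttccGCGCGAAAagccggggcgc
UHRF1: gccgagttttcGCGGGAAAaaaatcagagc
HELLS, upstream: aaccgcaagctGCGCCAAAtctcgcgcagc
HELLS, at the start: gatgacaggatTTTCCCGCgaaggagaagc
SUZ12: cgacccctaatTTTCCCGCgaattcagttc
MTF2: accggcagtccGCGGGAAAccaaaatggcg
CBX3: cggagtccggtTTTGGCGCcagccgctgag
EZH1: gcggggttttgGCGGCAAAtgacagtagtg
These windows lie at chr7:148884272-148884301 on the minus strand for EZH2, chr19:10194937-10194966 on the minus strand for DNMT1 and chr19:4909476-4909505 on the plus strand for UHRF1. Both HELLS windows are on the plus strand, at chr10:94545701-94545730 and chr10:94545769-94545798. SUZ12 matched at chr17:31936807-31936836 and MTF2 at chr1:93079277-93079306, both on the plus strand. CBX3 matched at chr7:26201428-26201457 on the plus strand and EZH1 at chr17:42745137-42745166 on the minus strand. In EZH2, DNMT1, UHRF1, CBX3 and MTF2 the octamer began between 14 bases before the start and base 6 of the transcript, whereas in EZH1 it began 115 bases and in SUZ12 189 bases before the start.

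A match describes the letters of a window and is neither a bound site nor a cause. Of the 8 factors with an octamer, 7 fell in mRNA and EZH1 rose, beside 30 falls among all 37 factors and 37.0% of all genes. This is near the share of the 37 factors as a whole, so the count is no result about the octamer. CBX2 and TET1 had the deepest falls among the others. CBX2 could not be searched, and TET1 held no octamer in its first-listed window. The CHR hexamers TTTGAA and TTCGAA, searched on both strands, were in none of the 8 replication-linked windows, in 3 of 26 others and in 16.62% of all windows. CCAAT on either strand was in 6 of 8, 7 of 26 and 35.7% of all windows. With every listed start of a symbol, an octamer was in 4 of 8, 5 of 26 and 3.992% of all symbols. CCAAT was then in 7 of 8, 9 of 26 and 39.72%.

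Within PRC2, the 2 catalytic subunits changed in opposite directions. EZH2 (GRCh37, chromosome 7, 148504349 to 148581413, minus strand) stood at 23.4, 26.5 and 23.8 CPM of mRNA in proliferating cultures 1 to 3 and at 7.97, 6.74 and 7.03 CPM in senescent cultures. Every senescent library lay below every proliferating one, and the mRNA fell 3.42-fold (log2 -1.78 ± 0.12 SE, adjusted p = 1.41e-11). EZH1 (chromosome 17, 40852293 to 40897067, minus strand), the paralog known from non-dividing tissues, stood at 14.5, 16.1 and 14.6 CPM in proliferating and 24.6, 25.0 and 23.7 CPM in senescent cells. Here the groups separated the other way, and the mRNA rose 1.61-fold (log2 0.69 ± 0.10 SE, adjusted p = 2.82e-06). RPFs of EZH2 numbered 1, 20 and 43 in proliferating and 8, 1 and 4 in senescent libraries, which gave a 4.12-fold fall (log2 -2.04 ± 0.43 SE, adjusted p = 6.71e-05) that DESeq2's Wald test did not call (adjusted p = 0.19). EZH1 had 15 footprints in the proliferating and 32 in the senescent libraries together, too few for a test.

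Set against each other per kilobase of coding sequence, which makes levels of different genes comparable, RNA-seq CDS reads of EZH2 exceeded those of EZH1 in proliferating cells with a ratio of 3.37 ± 0.26 (SD, n = 3). In senescent cells the ratio was 0.615 ± 0.052 (SD, n = 3). All proliferating ratios were above 1 and all senescent ratios below it, so that the more abundant catalytic mRNA of PRC2 was EZH2 in one state and EZH1 in the other.

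Of the non-catalytic PRC2 core, SUZ12, RBBP4 and RBBP7 fell at both levels. SUZ12, the scaffold of the complex, stood at 37.2, 33.8 and 43.5 CPM in proliferating and 22.4, 23.6 and 20.1 CPM in senescent cells, and fell both in mRNA (log2 -0.79 ± 0.10 SE, adjusted p = 6.51e-07) and in RPF (log2 -1.26 ± 0.33 SE, adjusted p = 0.00151). The histone chaperones RBBP4 and RBBP7, which PRC2 shares with chromatin assembly and deacetylase complexes, were among the most abundant of the 37 per coding kilobase. RBBP4 was at 173, 173 and 175 CPM in proliferating and 102, 116 and 110 CPM in senescent cells, a fall of 1.58-fold in mRNA (log2 -0.66 ± 0.07 SE, adjusted p = 4.08e-08) and of 1.96-fold in RPF (log2 -0.97 ± 0.18 SE, adjusted p = 6.17e-06). RBBP7 was at 110, 111 and 122 against 70.8, 78.5 and 73.8 CPM, a fall of 1.53-fold in mRNA (log2 -0.61 ± 0.07 SE, adjusted p = 2.39e-07) and of 1.61-fold in RPF (log2 -0.68 ± 0.18 SE, adjusted p = 0.00112). For these 3 genes no senescent mRNA value reached a proliferating one. DESeq2 did not call the RPF falls of SUZ12 and RBBP7, and that of RBBP7 was lost under 3 of 13 alternatives, among them the fit without senescent culture 1. RBBP4 has 7 named pseudogenes in GENCODE and shares 2160 exonic bases with SYNC on the opposite strand, whose reads could not be told apart without a stated strand rule.

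EED, which binds the H3K27 mark and stimulates the enzyme, was the exception. Its mRNA stood at 15.1, 14.5 and 15.1 CPM in proliferating and 12.7, 16.3 and 13.5 CPM in senescent cells. These ranges overlapped, and the fitted difference of -0.06 ± 0.12 (SE) was not called (adjusted p = 0.67). Its footprints numbered 1, 23 and 49 in proliferating and 24, 0 and 9 in senescent libraries, which at their depths is a lower RPF level (log2 -0.92 ± 0.35 SE, adjusted p = 0.0258). EED passed the footprint filter through its proliferating libraries alone, so its RPF call is not independent of its entry into the test. That call was lost under 3 of 12 alternatives, among them DESeq2 and the fit without senescent culture 1, with adjusted p values up to 0.54. Footprints per mRNA differed by -0.71 ± 0.38 (SE), below the threshold for a call (adjusted p = 0.30).

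Accessory subunits that direct PRC2 to chromatin all fell in mRNA without overlap between the groups. PHF19, a Tudor protein, went from 59.6 to 69.4 CPM down to 31.3 to 35.7 CPM (log2 -0.95 ± 0.08 SE, adjusted p = 2.29e-09). JARID2 went from 20.7 to 21.9 CPM down to 10.8 to 13.7 CPM (log2 -0.84 ± 0.11 SE), and MTF2 from 15.7 to 17.8 CPM down to 9.89 to 10.8 CPM (log2 -0.69 ± 0.11 SE). PHF19 alone had enough footprints, and its RPF fall (log2 -0.59 ± 0.32 SE, adjusted p = 0.13) did not hold under 7 of 12 alternatives, among them 4 that each left out 1 culture.

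PRC1 contained both the deepest fall and the steepest rise of the 37 factors. CBX2 (chromosome 17, 77751947 to 77761782, plus strand) stood at 10.0, 10.1 and 10.8 CPM in proliferating and at 1.17, 1.39 and 1.37 CPM in senescent cells, a 7.73-fold fall (log2 -2.95 ± 0.18 SE, adjusted p = 4.74e-12). Only 0.65% of all tested genes had a lower mRNA log2 change. CBX7 (chromosome 22, 39516172 to 39548685, minus strand) stood at 4.27, 5.13 and 5.12 CPM in proliferating and at 12.1, 9.74 and 11.8 CPM in senescent cells, a 2.27-fold rise (log2 1.184 ± 0.148 SE, adjusted p = 3.77e-07). For both genes the 2 states were apart in all 6 libraries. CBX2 and CBX7 are alternative chromodomain subunits of PRC1. In CDS reads per coding kilobase their ratio was 2.70 ± 0.42 (SD, n = 3) in proliferating and 0.0959 ± 0.053 (SD, n = 3) in senescent cells, where it rested on 2 to 6 CBX2 reads a library. About 83.3% of CBX7 reads in proliferating and 80.9% in senescent cells were in its 3′ UTR, and an unnamed opposite-strand gene covers 1338 of its exonic bases. With CDS reads alone the rise of CBX7 was still called. Footprints of both genes were near 0, with 8 for CBX2 and 1 for CBX7 over the proliferating libraries and 2 and 5 over the senescent ones.

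The other CBX subunits of PRC1 showed small mRNA changes with overlapping groups. CBX6 stood at 133, 135 and 136 CPM in proliferating and 169, 122 and 161 CPM in senescent cells. The senescent values lay on both sides of the proliferating ones, and the rise of 0.16 ± 0.09 (SE, adjusted p = 0.14) was lost under 8 of 13 alternatives. Its RPF level rose 1.39-fold (log2 0.47 ± 0.18 SE, adjusted p = 0.0276), with footprint levels of 168, 99.4 and 99.5 CPM against 144, 119 and 143 CPM. The value of 168 CPM belongs to the shallow proliferating library with 10 footprints, and the call was lost under 5 of 12 alternatives, among them DESeq2 and the fits in which senescent culture 1 or proliferating culture 2 or 3 was left out. CBX8 was at 6.10, 5.38 and 6.23 against 9.14, 7.40 and 5.57 CPM (log2 0.31 ± 0.17 SE, adjusted p = 0.11), again with overlap and with 7 of 13 alternatives without a call.

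Among the RING-finger subunits, RNF2, the main ubiquitin ligase of PRC1, was at 20.6, 20.8 and 22.3 CPM in proliferating and 14.7, 18.8 and 18.2 CPM in senescent cells. It fell in mRNA (log2 -0.29 ± 0.11 SE, adjusted p = 0.0209) and in RPF (log2 -1.15 ± 0.37 SE, adjusted p = 0.00943), the RPF call being lost under 4 of 12 alternatives, among them DESeq2 and the fits without proliferating culture 3 or senescent culture 1. BMI1, known for repressing the CDKN2A locus, was at 15.1, 16.8 and 19.8 CPM in proliferating and 18.7, 17.3 and 16.6 CPM in senescent cells. These overlapped almost fully, and the fitted difference was 0.01 ± 0.11 (SE, adjusted p = 0.94).

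RING1, the paralog of RNF2, was the single factor whose mRNA and RPF calls had opposite signs. Its mRNA stood at 39.3, 45.3 and 44.9 CPM in proliferating and 40.7, 34.0 and 35.0 CPM in senescent cells (log2 -0.25 ± 0.09 SE, adjusted p = 0.0191). Its footprints were at 50.5, 27.4 and 30.7 CPM, from 3, 19 and 53 fragments, in proliferating and at 47.5, 17.1 and 43.4 CPM, from 73, 1 and 23 fragments, in senescent libraries (log2 0.57 ± 0.28 SE, adjusted p = 0.0927). Both pairs of groups overlapped, and in RPF the overlap came from the shallow libraries. The RPF rise was lost under 7 of 12 alternatives, among them those without senescent culture 1 and without proliferating culture 2 or 3.

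Translation efficiency (TE), the change in footprints beyond that in mRNA, was tested as the interaction of library type with state, with each lysate as a block. TE was called for RING1 alone among 22 factors (log2 0.81 ± 0.29 SE, adjusted p = 0.10), against 9.98% of 7473 genes with 6.05% higher and 3.93% lower. No factor had a lower TE call, while 3 of the 22 had an unadjusted p under 0.05 in either direction, and DESeq2 called none. The log2 ratio of footprint to mRNA CPM of RING1 was 0.58, -0.69 and -0.54 in proliferating lysates 1 to 3 and 0.23, -0.41 and 0.34 in senescent ones. In the 4 lysates with deep Ribo-seq libraries the states were apart, whereas proliferating lysate 1, with 3 RING1 footprints, was the highest of all. The call was lost under DESeq2, under a looser count filter, and when proliferating culture 2 or 3 or senescent culture 1 or 3 was left out, with adjusted p values from 0.0377 to 0.999 over 14 alternatives.

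Lysate ratios of the 2 states did not overlap for 4 of the 22 factors, beside 16.2% of all genes. These shares are close, so the count is no result about the factors. EED and RBBP4 were lower in each senescent lysate, and PHF19 and UHRF1 higher. Shallow proliferating lysate 1 and senescent lysate 2 held 1 and 0 footprints of EED and 12 and 2 of RBBP4. For PHF19 they held 2 and 3, and for UHRF1 5 and 4, so the ratios there rest on few fragments. None of these 4 was called in the fit. The ratio of UHRF1 was 0.44, 0.53 and 0.84 in proliferating and 1.09, 1.91 and 1.25 in senescent lysates, a fitted TE difference of 0.50 ± 0.23 (SE, adjusted p = 0.23).

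**Figure D2:**
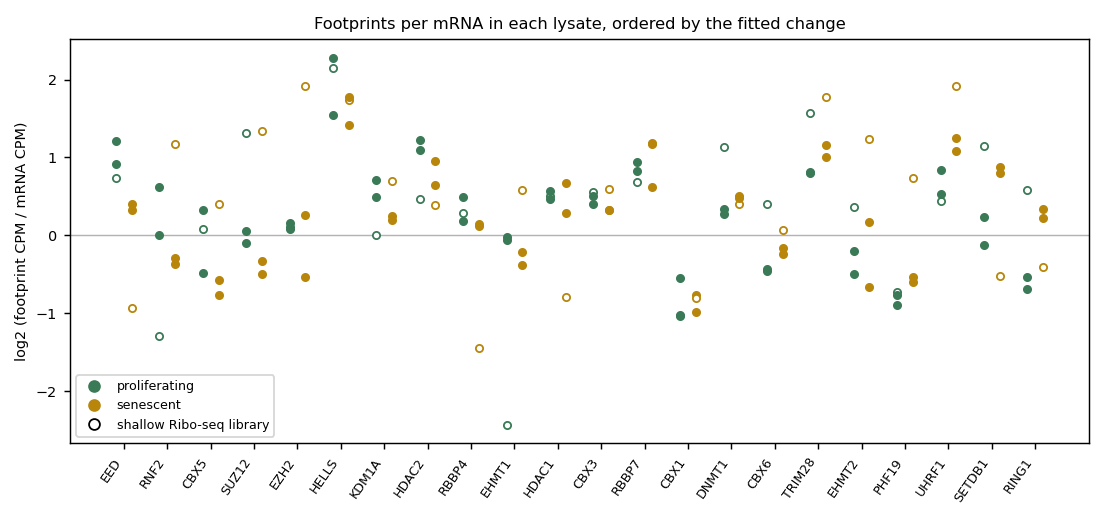
Log2 ratio of footprint CPM to mRNA CPM in each lysate for the 22 factors tested, ordered by the fitted change from EED, -0.71, to RING1, 0.81. Open points are the shallow Ribo-seq libraries (proliferating 1, senescent 2), which give most of the extreme values.

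The maintenance machinery of DNA methylation was reduced at both levels. DNMT1 mRNA stood at 111, 111 and 112 CPM in proliferating and 52.3, 45.2 and 57.4 CPM in senescent cells, a fall of 2.16-fold (log2 -1.11 ± 0.08 SE, adjusted p = 1.01e-10). Its RPF level fell 1.89-fold (log2 -0.92 ± 0.19 SE, adjusted p = 5.73e-05). UHRF1 stood at 68.4, 74.4 and 74.0 against 22.4, 20.4 and 26.5 CPM and fell 3.14-fold in mRNA (log2 -1.65 ± 0.09 SE, adjusted p = 1.05e-12) and 2.29-fold in RPF (log2 -1.20 ± 0.21 SE, adjusted p = 1.81e-06). For HELLS, the SNF2-family remodeller needed for methylation of repeats, values of 17.0, 18.2 and 22.7 CPM stood against 6.91, 7.62 and 5.75 CPM. HELLS fell 2.84-fold in mRNA (log2 -1.51 ± 0.14 SE, adjusted p = 3.53e-09) and 3.99-fold in RPF (log2 -1.996 ± 0.280 SE, adjusted p = 1.04e-08). In these 3 genes both the mRNA and the RPF groups were apart, and no alternative that tested them removed a call in mRNA or RPF. For DNMT1, UHRF1 and HELLS, shallow proliferating culture 1 held 14, 5 and 4 footprints. Shallow senescent culture 2 held 3, 4 and 1, so the RPF separation of these 2 libraries rests on few fragments.

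The de novo enzymes were lower as well. DNMT3A was at 12.4, 14.4 and 13.0 CPM in proliferating and 6.91, 4.91 and 7.49 CPM in senescent cells (log2 -1.07 ± 0.15 SE, adjusted p = 1.35e-06). DNMT3B, at 3.41, 4.36 and 3.35 against 2.55, 2.93 and 2.19 CPM, fell too (log2 -0.53 ± 0.20 SE, adjusted p = 0.0263), and its call was lost without proliferating culture 2 or with CDS reads alone. As for the proportion of maintenance to de novo enzyme, the ratio of DNMT1 to DNMT3A per coding kilobase was 7.42 ± 1.02 in proliferating and 6.40 ± 0.92 in senescent cells (SD, n = 3 each, overlapping).

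The TET enzymes of the opposing pathway all fell in mRNA. TET1 stood at 4.76, 4.53 and 5.21 CPM in proliferating and at 1.49, 0.879 and 1.19 CPM in senescent cells, a 4.17-fold fall (log2 -2.06 ± 0.23 SE, adjusted p = 6.06e-08). TET2 went from 21.0, 24.5 and 25.8 to 13.8, 13.0 and 14.3 CPM (log2 -0.80 ± 0.11 SE, adjusted p = 9.84e-07), and TET3 from 16.7, 19.5 and 16.8 to 8.51, 8.57 and 8.95 CPM (log2 -1.03 ± 0.12 SE, adjusted p = 9.52e-08). None of the 3 had overlapping groups. Per coding kilobase TET2 made up 60.0% ± 3.4 of TET reads in proliferating and 67.4% ± 1.2 in senescent cells, TET3 29.8% ± 2.8 and 28.1% ± 0.33, and TET1 10.3% ± 0.95 and 4.54% ± 1.54 (SD, n = 3 each). TET1 was thus the least abundant of the family in both states and the one with the most negative change.

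**Figure D3:**
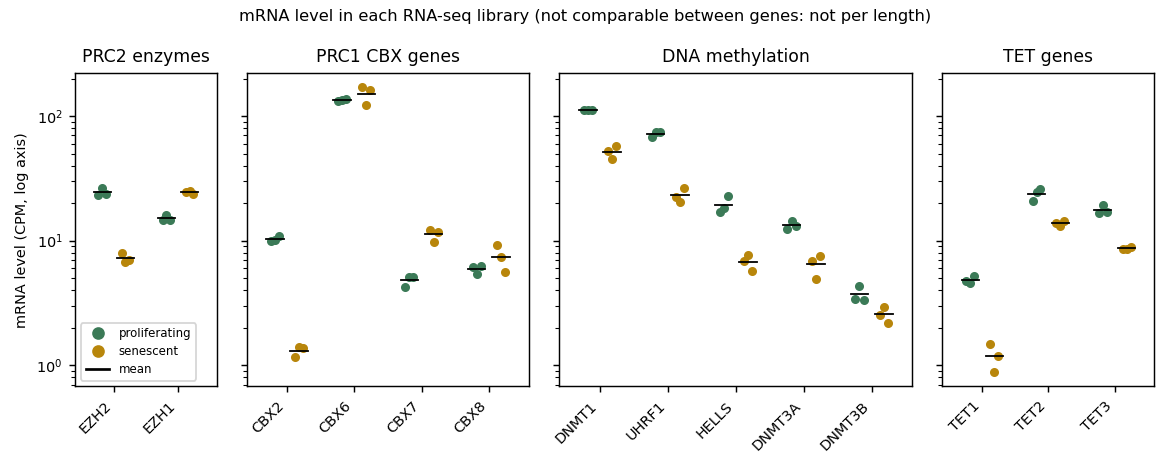
mRNA level (CPM, log axis) of the PRC2 enzymes, the PRC1 CBX genes, the DNA methylation genes and the TET genes in each of the 3 proliferating and 3 senescent RNA-seq libraries, with the mean as a line. EZH1 and CBX7 are higher in every senescent library, CBX6 and CBX8 overlap, and the others shown are lower in every senescent library. Levels are not per length and are comparable only within a gene.

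All 3 HP1 genes, whose proteins read H3K9 methylation, fell in mRNA. CBX5 (HP1 alpha) stood at 120, 125 and 124 CPM in proliferating and 87.7, 83.6 and 82.7 CPM in senescent cells (log2 -0.54 ± 0.07 SE, adjusted p = 6.07e-07). CBX3 (HP1 gamma) stood at 154, 162 and 155 against 105, 118 and 96.8 CPM (log2 -0.56 ± 0.08 SE, adjusted p = 1.65e-06), and CBX1 (HP1 beta) at 120, 109 and 117 against 102, 105 and 102 CPM (log2 -0.16 ± 0.07 SE, adjusted p = 0.0511). The groups were apart for each, but the fall of CBX1 was small and lost without proliferating culture 1 or with CDS reads alone. In RPF, CBX5 fell 2.11-fold (log2 -1.08 ± 0.22 SE, adjusted p = 4.04e-05) and CBX3 1.65-fold (log2 -0.72 ± 0.17 SE, adjusted p = 0.000367), while CBX1 was not called (log2 -0.14 ± 0.23 SE, adjusted p = 0.64). CBX3 and CBX1 have 10 and 5 named pseudogenes, and how the counting treated reads shared with them is not given in the sources used here.

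The 5 H3K9 methyltransferases fell in mRNA, and none of the 3 with enough footprints for a test was called in RPF. SUV39H1 stood at 11.8, 11.4 and 8.0 CPM in proliferating and 6.27, 5.49 and 6.67 CPM in senescent cells (log2 -0.76 ± 0.16 SE, adjusted p = 0.000227). SUV39H2 (log2 -0.86 ± 0.15 SE), EHMT2, the G9a enzyme (log2 -0.73 ± 0.09 SE), SETDB1 (log2 -0.69 ± 0.11 SE) and TRIM28, the corepressor that recruits SETDB1 (log2 -0.65 ± 0.07 SE), fell by similar amounts with no overlap between states. EHMT1, the partner of EHMT2, was at 45.4, 51.8 and 50.2 against 44.4, 39.8 and 49.2 CPM, and its call (log2 -0.15 ± 0.09 SE, adjusted p = 0.14) was lost under 8 of 13 alternatives. The ratio of EHMT2 to EHMT1 per coding kilobase was 1.196 ± 0.032 in proliferating and 0.802 ± 0.022 in senescent cells (SD, n = 3 each), without overlap.

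TRIM28 had the most footprints of all members, 1382 over the proliferating and 899 over the senescent libraries. Its RPF fall of 1.31-fold (log2 -0.39 ± 0.17 SE, adjusted p = 0.0589) was lost under DESeq2, under a looser count filter, and when proliferating culture 3 or senescent culture 1 or 3 was left out. SETDB1 differed by -0.03 ± 0.35 (SE) in RPF, EHMT2 by -0.41 ± 0.29 and EHMT1 by -0.36 ± 0.27, none of them called. The mRNA changes of all 3 lay within 2 SE of these RPF values. An RPF call appeared for EHMT1 under 2 of 12 alternatives and for EHMT2 under 1 of 12.

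Of the erasers and deacetylases, KDM1A (LSD1) stood at 109, 104 and 101 CPM in proliferating and 65.3, 68.2 and 63.2 CPM in senescent cells and fell in mRNA (log2 -0.67 ± 0.07 SE, adjusted p = 4.13e-08) and RPF (log2 -0.97 ± 0.19 SE, adjusted p = 1.82e-05). KDM6B, an H3K27 demethylase, fell slightly in mRNA (log2 -0.25 ± 0.10 SE, adjusted p = 0.0416), with overlapping groups and no call without senescent culture 2. HDAC2 stood at 140, 130 and 133 against 85.6, 97.8 and 93.0 CPM and fell in mRNA (log2 -0.54 ± 0.07 SE, adjusted p = 1.21e-06) and RPF (log2 -0.87 ± 0.17 SE, adjusted p = 1.66e-05). HDAC1, its paralog in the same complexes, stood at 101, 108 and 97.2 against 88.8, 103 and 90.7 CPM. It was called in neither mRNA (log2 -0.11 ± 0.08 SE, adjusted p = 0.21) nor RPF (log2 -0.29 ± 0.18 SE, adjusted p = 0.20). A fall of HDAC1 was however called under 4 of 13 alternatives in mRNA and 3 of 12 in RPF. Their ratio, HDAC2 to HDAC1 per coding kilobase, moved from 1.41 ± 0.12 to 1.03 ± 0.02 (SD, n = 3 each).

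Of 13 ratios between related factors, 9 had senescent values wholly below the proliferating ones and 4 overlapped. That share is near the 67.8% of single genes whose mRNA groups did not overlap, so the count by itself is no result about these families. Among the HP1 genes, CBX3 to CBX1 moved from 2.06 ± 0.32 to 1.49 ± 0.05 and CBX5 to CBX1 from 0.340 ± 0.034 to 0.255 ± 0.028. RBBP4 to RBBP7 moved from 0.746 ± 0.043 to 0.630 ± 0.036, and TET1 to TET2 from 0.172 ± 0.023 to 0.0677 ± 0.024 (SD, n = 3 each). The overlapping ratios were DNMT3A to DNMT3B, DNMT1 to DNMT3A, RNF2 to RING1 and SUV39H1 to SUV39H2.

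**Figure D4:**
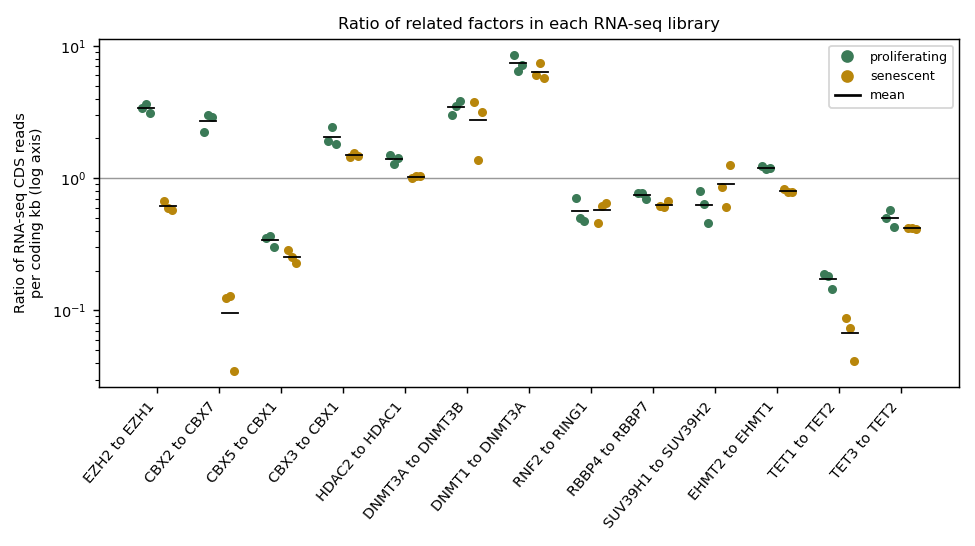
Ratio of RNA-seq CDS reads per coding kilobase (log axis) between related factors in each library, with the mean of 3 libraries a state as a line. The line at 1 marks equal levels. EZH2 to EZH1 lies above it in all proliferating and below it in all senescent libraries, and CBX2 to CBX7 drops furthest.

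Where both levels could be tested, mRNA and RPF changes had the same sign in 21 of 22 factors, beside 79.5% of 7473 genes, the libraries of both levels coming from the same lysates. Falls were called at both levels in 14 factors, beside 21.5% of genes, and a rise at both levels in CBX6 alone, beside 23.8%. CBX1, EHMT1, EHMT2 and SETDB1 fell in mRNA with no RPF call, EED had an RPF call without an mRNA call, HDAC1 had neither, and RING1 had opposed calls, as did 1.90% of genes. The RPF change was the more negative in 13 of 22, beside 51.5% of genes.

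**Figure D5:**
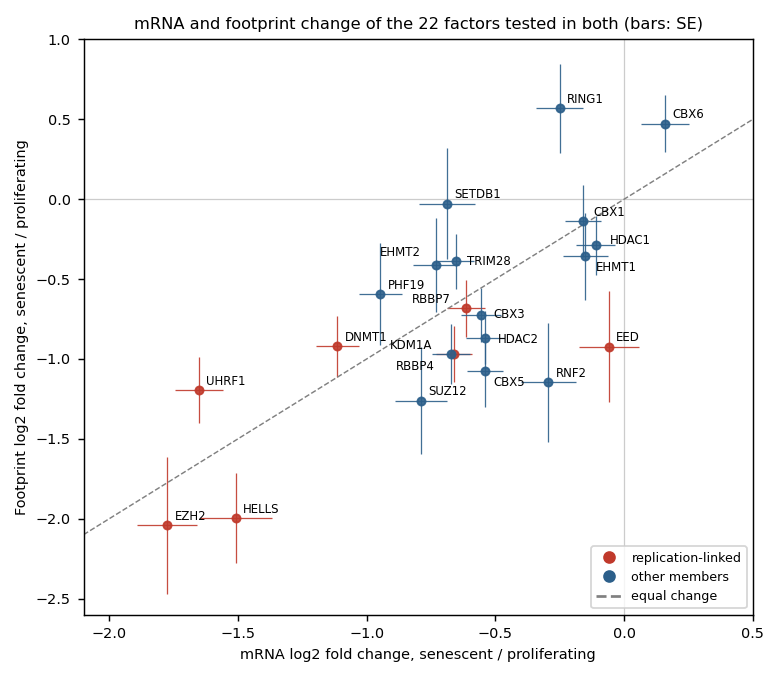
mRNA (x) against footprint (y) log2 fold change for the 22 factors tested at both levels, with SE bars. The dashed line marks equal change. EZH2, HELLS and UHRF1 lie furthest to the lower left, and RING1 is alone in the upper left with an RPF rise and an mRNA fall.

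Related silencing factors outside the 37 formed a list of 58 further polycomb, H3K9, DNA methylation and chromatin assembly genes. In mRNA 31 of these fell and 12 rose, beside 37.0% and 36.6% of all genes, with a median of -0.26. In RPF 16 of 44 fell and 4 rose, beside 26.9% and 27.5%, with a median of -0.31. The largest falls in mRNA were those of CDCA7, the partner of HELLS (log2 -2.56 ± 0.14 SE), CHAF1B, a subunit of the replication-coupled assembly factor CAF-1 (log2 -1.33 ± 0.13 SE), and SMCHD1, which acts in X inactivation (log2 -1.28 ± 0.09 SE). The largest rises were those of CDYL, a chromodomain corepressor (log2 0.71 ± 0.09 SE), and KDM4B, an H3K9 demethylase (log2 0.58 ± 0.09 SE).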

How the data were processed

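The authors counted reads per gene and region (5′ UTR, CDS, 3′ UTR) and deposited these as estimated counts, a few of them fractional, where the planned design had assumed whole counts. The submitters' processing notes name cutadapt 1.18, Bowtie 1.0.1, SAMtools 1.8 and DESeq2 1.22.2. Genome build, annotation and strand rule of the counting are not given in the sources used here. A tag resembling DMSO in the names of the proliferating RNA-seq tables is not explained by the labels.

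Regions were summed per symbol, rounded, and kept where a symbol had any CDS read (16451 of 38716). Each layer was filtered with filterByExpr, scaled with TMM factors and fitted over all genes with edgeR 4.0.16 (R 4.3.3) quasi-likelihood tests, using Benjamini-Hochberg adjustment at 0.15. TE was the interaction of library type and state over 12 libraries with the lysate as a block, since RNA was kept from each Ribo-seq lysate. The study used anota2seq, which was not run. The SE of a change was its size divided by the square root of the test statistic. Lysate ratios used an added count of 0.5. Scripts were tested on simulated data. The 3 libraries of a group are independent cultures per the labels, and counts differed between them by more than sampling noise. Coding lengths, planned from RefSeq proteins, and gene positions came from GENCODE v44 lifted to GRCh37, and promoter windows from RefSeq GRCh38.p14, with the first-listed start of each symbol. A count of 0 was read as allowing up to 3 counts, for counting error only.

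All members are named. Per-library values are given for the replication-linked factors, paralog families and any opposed or TE call. From the related factors the 3 largest called mRNA changes each way are named, except 1 that is not reported here. The members and lists were chosen with earlier results of these data known. Alternatives were DESeq2 1.42.0, RLE or unscaled library sizes, other count filters, a threshold of 0.05, CDS reads only, blocks, and leaving out cultures.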

Additional observations from a re-analysis of the deposited data

How the results depend on the processing

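No called change turned its direction under any alternative. Over single factors, 448 of 481 mRNA values, 225 of 267 RPF values and 301 of 311 TE values stayed on their side of the threshold. Counts of mRNA falls stayed between 27 and 31 (30 in the report). The 4 mRNA rises became 2 under DESeq2, library totals without TMM factors, CDS reads only and an adjusted p of 0.05, and 2 to 3 when a culture was left out. Library totals moved the median of all genes to -0.11 in mRNA and -0.14 in RPF. The 15 RPF falls became 8 under DESeq2 (over all genes 1164 of 7521 called, in place of 4088), 3 where at least 10 counts were required in every library (3 factors tested), and 10 to 18 when a culture was left out, with the lowest count without senescent culture 1. They were 16 of 28 tested without both shallow cultures. The 2 RPF rises became 0 under DESeq2, the replicate block and the filter of 10 counts, 1 under library totals and under 0.05, and 0 to 3 when a culture was left out. TE falls, 0 in the report, became 1 under library totals (CBX5), 1 without the lysate block (EED) and 0 to 1 when a culture was left out. The 1 TE rise became 0 under DESeq2, a filter of 1 read, the filter of 10 counts and a threshold of 0.05, 2 without both shallow cultures, and 0 to 1 when a culture was left out. The median mRNA difference between replication-linked and other factors moved from -0.38 to -0.97 with the narrow set of 4. The cause of these moves was not tested, beyond fewer genes or libraries entering.

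Deviations of same-numbered proliferating and senescent libraries correlated at 0.05, -0.15 and 0.17 in mRNA and 0.07, 0.06 and 0.01 in RPF. Such values show little shared deviation, but cannot settle whether cultures were passaged in pairs. With replicate number as a block, 30 mRNA falls, 4 mRNA rises, 11 RPF falls and 0 RPF rises were called. The RPF calls of EED, RBBP7, RNF2, PHF19, RING1 and CBX6 were lost, and RPF calls over all genes went from 4088 to 2336. Without the lysate block, TE calls over all genes went from 746 to 1358. In the shallow libraries the tested factors had 0 to 53 and 0 to 36 footprints.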

Other observations

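The 37 factors differed widely in where their RNA-seq reads lay. TRIM28 had 0.40% of its mRNA reads in the 3′ UTR in proliferating cells, DNMT1 1.32% and EZH2 1.72%, whereas CBX5 had 85.9%, CBX7 83.3% and CBX6 80.0%. SUV39H2 moved most, from 31.4% in proliferating to 43.0% in senescent cells, followed by CBX2 from 54.1% to 62.2% and MTF2 from 17.4% to 10.0%. These are pooled shares over 3 libraries with no test.

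Levels of CDS reads per coding kilobase spanned a wide range in proliferating cells. CBX3 (134 CPM per kb), TRIM28 (119 CPM per kb) and HDAC2 (77.4 CPM per kb) were highest in RNA-seq, and TET1 (0.468 CPM per kb), DNMT3B (0.875 CPM per kb) and CBX7 (1.01 CPM per kb) were lowest. In footprints from the deep proliferating libraries CBX3 (394 CPM per kb) was again highest, and TET1 (0.473 CPM per kb) again lowest.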
